A study of Homo sapiens with 19 samples.

Results

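The NRF2 target genes examined here were 10 protein-coding genes, namely NFE2L2, HMOX1, SLC7A11, TXNRD1, SRXN1, GCLM, GCLC, NQO1, OSGIN1 and SQSTM1. They were listed by name, as a set chosen with earlier results of these data known but with no rule on measured values, and were found by gene ID among the 19942 gene rows of the expression and eCLIP tables. In the transcript table, 90 of 256980 transcripts belonged to them.

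NRF2, the protein encoded by NFE2L2, is a transcription factor that the adaptor protein KEAP1 normally holds in the cytoplasm and hands to a CUL3 ubiquitin ligase for degradation. Oxidants and electrophiles, arsenite among them, modify cysteines of KEAP1. NRF2 then escapes degradation, pairs with a small MAF protein and binds the antioxidant response element (ARE) of its target genes, whereas BACH1 occupies the same element as a repressor. The targets make glutathione, reduce thioredoxin and peroxiredoxins, degrade haem and detoxify quinones.

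SH-SY5Y, a human neuroblastoma line of neuronal character, was the source of all samples. The study asked which RNAs the stress granule (SG) proteins G3BP1 and G3BP2 bind, which RNAs collect in SG cores, and how the transcriptome changes after loss of either protein or after sodium arsenite (AS). The rRNA-depleted RNA-seq held 1 untreated library and 1 AS library, whose label gives 500 μM AS for 1 h. Poly-A RNA-seq held 1 library each of cells that received a control siRNA (siCtrl), an siRNA to G3BP1 (siG3BP1) or an siRNA to G3BP2 (siG3BP2). The Total library was lysate RNA of AS-treated cells, and the SG library was RNA of SG cores that were pulled from the same kind of lysate with an antibody to G3BP1. For eCLIP, in which RNA is crosslinked to a protein by UV light and precipitated with it, there were 2 libraries each for G3BP1 and for G3BP2 from untreated and from AS-treated cells. The labels of the siRNA, Total, SG and eCLIP samples all give AS at 50 mM for 1 h, those of untreated cells included, so their treatment was taken from the sample names and from the study's methods, which state the dose of 500 μM. No RNA-seq condition had a second library, and no difference between RNA-seq libraries has a replicate check.

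An ARE has the core TGACNNNGC, where N is any base. RefSeq promoter windows of GRCh38.p14, from 250 bases before to 50 bases after the transcription start, were given for 8 of the 10 genes, in 12 windows. The core occurred on either strand in 3 of these windows, which belonged to TXNRD1 and GCLM, and in 13.3% of all 35116 promoter windows. The related AP-1 element TGAGTCA occurred in 1 window, that of OSGIN1, and in 4.95% of all windows. The genes were listed by name and not by motif. The matches of both elements are shown because NRF2 binds the ARE, and capitals mark the matched bases. They are written 5′ to 3′ on the strand of the gene, and in all but the first the motif itself lies on the other strand, so that its complement is read.
TXNRD1 (chr12:104215670-104215698, plus strand, first capital 99 bases before the start): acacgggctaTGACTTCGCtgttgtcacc
TXNRD1 second start (chr12:104286920-104286948, plus strand, first capital 102 bases before the start): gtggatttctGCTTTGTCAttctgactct
GCLM (chr1:93909446-93909474, minus strand, first capital 34 bases before the start): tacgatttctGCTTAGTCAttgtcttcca
OSGIN1 (chr16:83953133-83953159, plus strand, first capital 97 bases before the start): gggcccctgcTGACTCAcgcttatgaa

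TXNRD1 also held a further match of the core 8 bases before its first listed start. A match is a stretch of letters and not a measured binding site, and elements outside the windows were not searched.

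The labels were first set against marker genes. Of 12 neuroblastoma markers, 11 stood above 1 TPM, the transcript abundance scaled to library size and length, in each of the 5 libraries with TPM values, and TH did not. The 5 fibroblast markers were also above 1 TPM in all 5, with summed levels from 59.9 TPM in Total to 210 TPM in SG. Of 4 leukocyte markers, CD68 was above 1 TPM in all but Total and LYZ in SG alone, and their sum was 0.601 TPM in Total and 30.1 TPM in SG. No endothelial, astrocyte or hepatocyte marker was above 1 TPM. The part of these cell types in the results was not tested. G3BP1 stood at 18.7 TPM in siCtrl and 6.0 TPM in siG3BP1, and G3BP2 at 38.1 TPM in siCtrl and 11.4 TPM in siG3BP2. FOS, an immediate early gene, had a signal of 0.768 in the untreated and 236 in the AS rRNA-depleted library, and 2.71 TPM in siCtrl against 174 TPM in Total.

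The first comparison asked how the targets stood after 1 h of AS in whole-cell rRNA-depleted RNA. HMOX1, the haem oxygenase that degrades haem to biliverdin, carbon monoxide and iron, and OSGIN1, a growth inhibitor induced by oxidative stress, were the 2 members called higher in AS. A gene was called where the AS to untreated ratio was above 2 or below 0.5 and the higher library was above 1. In all, 9 members were above 1, of which 2 were called higher and none lower, against 7.66% of 12683 genes called higher and 1.41% called lower. The values are sums over the transcripts of a gene, each in reads per kilobase scaled by library depth, and are called signal here. Over the 11920 genes above 1 in both libraries the median ratio was 1.21, and over the 9 members it was 1.43.

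HMOX1 (ENSG00000100292, GRCh38 chromosome 22, 35380361 to 35394214, plus strand) had a signal of 2.98 in untreated and 9.14 in AS, a ratio of 3.06, which lay at the 97.1st percentile of the tested genes. In RNA of whole cultures, more cells with the RNA and more RNA per cell cannot be told apart. Its transcript with the most reads, HMOX1-203, had 13 reads in untreated and 33 in AS, a ratio of 2.99 with an exact 95% counting interval of 1.53 to 6.19. These intervals cover counting error only, and transcripts of 1 gene share reads.

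OSGIN1 (ENSG00000140961, chromosome 16, 83931311 to 83966332, plus strand) went from 2.12 to 4.29, a ratio of 2.03, just past the threshold. Its transcript OSGIN1-203 had 12 reads in untreated and 26 in AS, and the interval of its ratio ran from 1.24 to 5.55. OSGIN1-204, without a defined coding sequence, went the other way, with 13 reads in untreated and 1 in AS. Over protein-coding transcripts alone the ratio of the gene was 3.02. With the median ratio set to 1, HMOX1 stood at 2.52 and stayed called, whereas OSGIN1 stood at 1.67 and did not.

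NFE2L2 (ENSG00000116044, chromosome 2, 177218667 to 177392756, minus strand), the gene of NRF2 itself, had a signal of 49.1 in untreated and 92.0 in AS, a ratio of 1.87 at the 90.8th percentile. Its MANE Select transcript NFE2L2-201 had 225 and 337 reads, with a ratio of 1.76 and an interval of 1.49 to 2.10. The whole interval lay above the median ratio of all genes and its upper end reached the threshold of 2.

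The 3 genes of glutathione supply lay between 1.17 and 1.56. GCLC, the catalytic subunit of glutamate-cysteine ligase, had a signal of 35.4 in untreated and 55.3 in AS, and its transcript GCLC-214 had 184 and 271 reads, with a ratio of 1.74 and an interval of 1.43 to 2.10. GCLM, the modifier subunit of the same enzyme, had 6.23 and 7.29, a ratio of 1.17 that became 1.27 over protein-coding transcripts alone. GCLM-201 had a ratio of 1.25 and an interval of 0.978 to 1.60, which overlapped that of GCLC-214. SLC7A11, the cystine transporter, was below 1 in both libraries, at 0.446 and 0.599, and the 33 and 41 reads of its main transcript gave an interval of 0.903 to 2.39, within counting error of no difference.

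Of the 2 genes that serve thioredoxin and peroxiredoxin, TXNRD1 lay at the 48.6th percentile of tested genes and SRXN1 at the 74.1st. TXNRD1, thioredoxin reductase, had a signal of 162 in untreated and 197 in AS, a ratio of 1.22, which is 1.00 relative to the median. It was the most deeply read member, with 724 and 760 reads of TXNRD1-210 and an interval of 1.12 to 1.37. SRXN1, sulfiredoxin, which repairs overoxidised peroxiredoxins, had 6.79 and 9.71, a ratio of 1.43 with an interval of 1.20 to 1.71.

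NQO1, a quinone reductase, had the lowest ratio of the set, at 1.04 from signals of 56.0 and 58.0, and lay at the 20.6th percentile of tested genes. The interval of its transcript NQO1-201, with 288 and 285 reads, was 0.986 to 1.38. An antisense gene, NQO1-AS1, starts within NQO1, and reads of both genes cannot be told apart without a statement on strand. SQSTM1, an autophagy receptor that binds KEAP1, had signals of 1.90 and 2.70, but no more than 3 and 7 reads in its main transcript. Its signal in untreated cells per TPM in siCtrl lay at the 1.99th percentile of 7025 genes above 10 TPM in siCtrl, so its ratio of 1.42 rests on very few reads, and why so few were counted was not tested.

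**Figure D1:**
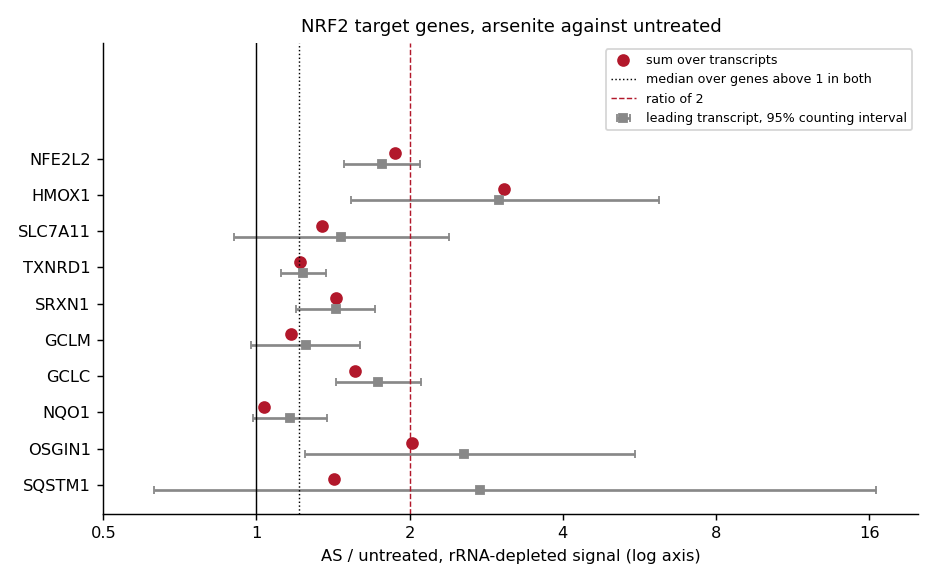
Ratio of AS to untreated rRNA-depleted signal on a log axis for each NRF2 target gene, 1 library per condition. Circles are sums over transcripts. Squares, with exact 95% counting intervals, are the transcript with the most reads among those whose version matched the annotation. HMOX1 at 3.06 and OSGIN1 at 2.03 lie past the dashed line at 2, the circle of TXNRD1 lies on the dotted median of 1.21, and the circles of GCLM and NQO1 lie below it, whereas the GCLM square at 1.25 lies above it.

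The same comparison was made for single transcripts. Of the 90 member transcripts, 59 were above 1 in the higher library, of which 10 were called higher and 0 lower. Over all 100705 tested transcripts, 6.84% were called higher and 2.01% lower. The 10 were 6 of HMOX1, 3 of NFE2L2 and 1 of OSGIN1. The 6 tested HMOX1 transcripts had ratios from 2.16 to 3.53, and the protein-coding HMOX1-201, the MANE Select transcript, went from a signal of 0.629 to 1.83. Its retained-intron form HMOX1-204 was listed at 0 in untreated cells and at 0.313 in AS. All 12 NFE2L2 transcripts had ratios above 1, from 1.63 to 7.07. The 3 called were NFE2L2-207, NFE2L2-212 and NFE2L2-208. The coding NFE2L2-207 went from a low signal of 0.165 to 1.17, at 7.07, and the coding NFE2L2-212 was at 2.16. NFE2L2-208, a retained-intron form, went from 0.866 to 2.55, at 2.95. The other retained-intron forms, NFE2L2-204 and NFE2L2-210, were not called, and the latter had the lowest ratio of the 12, at 1.63. Among the 17 tested TXNRD1 transcripts the ratios ran from 1.05 to 1.36, and among the 7 of NQO1 from 0.707 to 1.23, with the retained-intron NQO1-207 at the low end. Transcripts of 1 gene share most of their reads and are not independent.

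The lysate of AS-treated cells and the siCtrl library gave a second view of AS, in TPM of libraries that the labels describe as polyA. These libraries differ in siRNA transfection and in how the RNA was taken as well as in AS, and these differences cannot be told apart. SRXN1 and OSGIN1 were the members called lower in Total, and none was called higher, among 9 above 1 TPM. The background was 27.2% of 12173 genes called lower and 2.37% called higher, with a median ratio of 0.750. SRXN1 stood at 31.2 TPM in siCtrl and 14.7 TPM in Total, a ratio of 0.472, and OSGIN1 at 5.47 and 2.67 TPM, a ratio of 0.488. Relative to the median ratio these are 0.629 and 0.651, and neither is then called.

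HMOX1 was the single member with a higher level in Total, at 4.83 TPM in siCtrl and 5.87 TPM in Total, a ratio of 1.22 at the 88.1st percentile, and was not called. NFE2L2 followed with 16.3 and 15.3 TPM, a ratio of 0.941. The ratios of TXNRD1, GCLM, GCLC, NQO1 and SQSTM1 lay between 0.601 and 0.786. SLC7A11 was listed at 0.120 TPM in siCtrl and 0.0561 TPM in Total, under the minimum.

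The next comparison asked which target RNAs were enriched in SG cores. NFE2L2, SLC7A11, TXNRD1, SRXN1, GCLM and GCLC were enriched, by a fold above 2 on the TPM + 1 scale with more than 1 TPM in SG. HMOX1, OSGIN1, NQO1 and SQSTM1 were neither enriched nor depleted. Thus 6 of 10 members were enriched and 0 depleted, against 62.9% of 13560 genes enriched and 9.45% depleted, so the share of the set was near that of all genes. SG carried 430.6 TPM of the 10 members together and Total 121 TPM, and over all genes above 1 TPM in both the median SG to Total ratio was 2.78.

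NFE2L2 stood at 15.3 TPM in Total and 84.3 TPM in SG, a fold of 5.22. In glutathione supply, GCLC went from 7.21 TPM in Total to 55.6 TPM in SG, a fold of 6.90, which was the highest of the 10 on this scale. GCLM had 2.89 and 15.4 TPM, a fold of 4.22.

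SLC7A11, listed at 0.0561 TPM in Total and 3.96 TPM in SG, had a fold of 4.70 on the TPM + 1 scale, which understates low genes. With 0.1 TPM added in place of 1 the fold was 26.0, against 7.62 for GCLC, and the plain ratio was 70.7, so that SLC7A11 then stood highest. TXNRD1 went from 26.2 TPM in Total to 175 TPM in SG, a fold of 6.48, and SRXN1 had 14.7 and 63.3 TPM, a fold of 4.09. On the TPM + 1 scale all 6 enriched members had folds between 4.09 and 6.90.

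The other 4 lay below 1. HMOX1 was at 5.87 TPM in Total and 5.34 TPM in SG, a fold of 0.922, and OSGIN1 at 2.67 and 2.28 TPM, a fold of 0.893. NQO1 had 19.0 and 10.8 TPM, a fold of 0.590, and SQSTM1 had 27.1 and 14.4 TPM, a fold of 0.550. When the median SG to Total ratio was set to 1, TXNRD1, GCLC and SLC7A11 stayed above 2, whereas HMOX1, OSGIN1, NQO1 and SQSTM1 stood below 0.5, giving 3 enriched and 4 depleted. The 2 members called higher after AS in rRNA-depleted RNA, HMOX1 and OSGIN1, were both among the 4 that were not enriched. They are also the 2 shortest members, and the share over all genes called higher after AS was not counted. FOS, which was also higher after AS, stood at 174 TPM in Total and 802 TPM in SG. A link between the 2 comparisons was not tested.

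**Figure D2:**
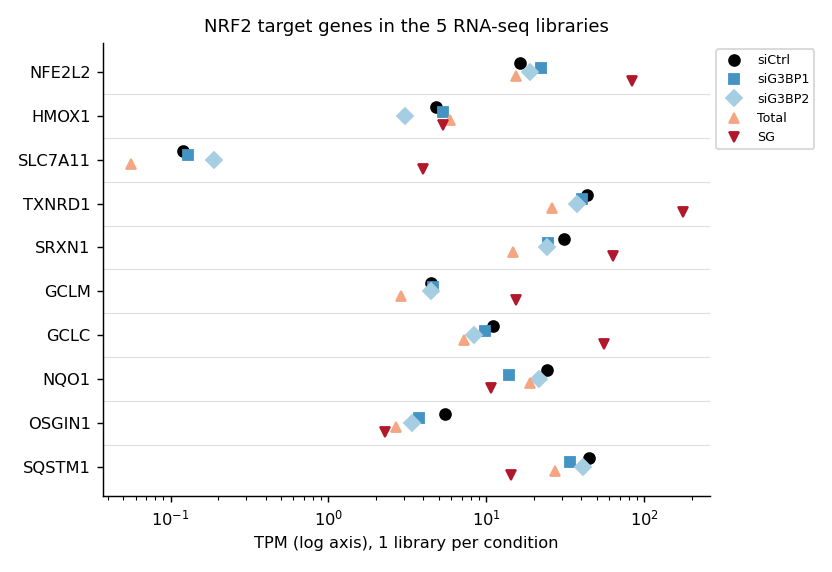
TPM on a log axis of each NRF2 target gene in the 5 libraries with TPM values, 1 library per condition. The SG value lies to the right of the other 4 for the 6 enriched genes and to the left of them for OSGIN1, NQO1 and SQSTM1, while for HMOX1 it lies among them.

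SG enrichment followed transcript length over all genes, with a Spearman rho of 0.718 between MANE Select length and fold over 12901 genes, which share the same 2 libraries. The median length was 4425 nt for SG-enriched, 2191.5 nt for neither and 1132 nt for SG-depleted genes. For the 10 members rho was 0.44. The shortest, HMOX1 at 1554 nt and OSGIN1 at 1922 nt, were not enriched, and the longest, SLC7A11 at 9645 nt, GCLM at 4883 nt, TXNRD1 at 3860 nt and GCLC at 3785 nt, all were.

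The 4 genes between 2446 and 2840 nt split. NFE2L2 at 2446 nt and SRXN1 at 2528 nt had folds of 5.22 and 4.09, and NQO1 at 2521 nt and SQSTM1 at 2840 nt had 0.590 and 0.550. Among genes within a factor of 1.25 of its length, NFE2L2 lay at the 91.0th percentile of 2797 genes, whose median fold was 1.96, and SRXN1 at the 84.0th of 2848. NQO1 lay at the 5.97th percentile of 2849 genes and SQSTM1 at the 3.59th of 2982, so genes of nearly equal length stood at opposite ends. Their 3′UTR lengths were 480 nt for NFE2L2, 2102 nt for SRXN1, 1578 nt for NQO1 and 1488 nt for SQSTM1, which do not follow the split. HMOX1 lay in the middle of genes of its length, at the 48.4th percentile, and OSGIN1 at the 30.4th. Of the longest members, TXNRD1 lay at the 74.3rd percentile and GCLC at the 78.6th. GCLM lay at the 38.5th, and SLC7A11 at the 19.1st, with a fold of 4.70 against a median of 12.6 for genes of like length. Both were thus enriched less than most genes of their length on the TPM + 1 scale.

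**Figure D3:**
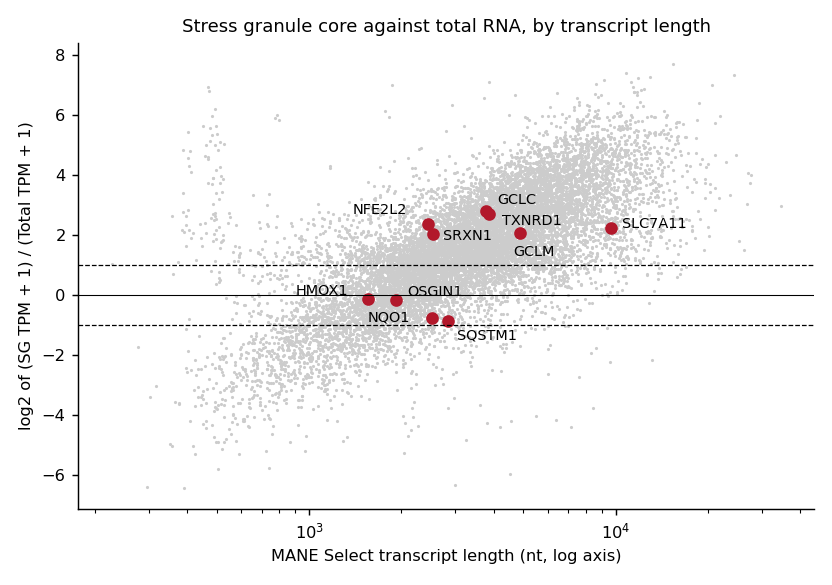
log2 fold of SG over Total TPM + 1 against MANE Select transcript length in nt on a log axis, for 12901 genes (grey) and the 10 NRF2 target genes (red), with dashed lines at folds of 2 and 0.5. NFE2L2 and SRXN1 stand above, and NQO1 and SQSTM1 below, most genes of similar length.

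Knockdown of G3BP1 or G3BP2 was compared with siCtrl. No member was called in either comparison, with 9 members above 1 TPM. The background was 2.53% of 12280 genes called higher and 3.69% lower in siG3BP1, and 2.43% of 12229 higher and 5.62% lower in siG3BP2. The 2 comparisons share the siCtrl library. Their median ratios over genes above 1 TPM in both libraries were 0.941 and 0.919.

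NQO1 was the member farthest from siCtrl in siG3BP1, at 24.1 TPM in siCtrl and 14.0 TPM in siG3BP1, a ratio of 0.579 at the 5.46th percentile. In siG3BP2 it stood at 21.6 TPM, a ratio of 0.895. NFE2L2 stood at 16.3 TPM in siCtrl, 22.1 TPM in siG3BP1 and 19.0 TPM in siG3BP2, with ratios of 1.36 and 1.17, the first at the 92.1st percentile.

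HMOX1 had 4.83 TPM in siCtrl, 5.29 TPM in siG3BP1 and 3.07 TPM in siG3BP2, so that its ratios of 1.10 and 0.635 lay on opposite sides of 1. OSGIN1 was lower in both, at 3.74 and 3.38 TPM against 5.47 TPM in siCtrl, with ratios of 0.684 and 0.618. TXNRD1, SRXN1, GCLC and SQSTM1 had ratios between 0.755 and 0.925 in the 2 knockdowns, and GCLM stood at 4.44, 4.60 and 4.46 TPM. SLC7A11 was listed at 0.120, 0.129 and 0.187 TPM, under the minimum. None of these differences can be set against a replicate spread.

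Finally, G3BP binding to the target RNAs was compared between untreated and AS-treated cells. The eCLIP value of a gene is log10 of a whole number plus 1, here after scaling all 8 libraries to the same total, because those totals ran from 4268657 to 26179732. No member passed an adjusted p of 0.05 in limma for either protein, for the difference between the proteins in the AS change, or for the mean difference between the proteins. Over all 18888 genes tested for G3BP1 and 19035 for G3BP2, limma also called 0 genes, that is 0.0% in each direction. At an unadjusted p under 0.05, 1.34% of genes were higher and 1.24% lower for G3BP1, and 1.74% and 1.61% for G3BP2, and no member was among them. For the difference between the proteins in the AS change, which 0.327% of 19259 genes passed upward and 0.452% downward at that level, there was no member either.

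All 10 members had an eCLIP value above 0 in each library, as did 16476 of the 19942 gene rows. A value above 0 does not by itself show binding. NFE2L2 had values of 3.13 and 3.11 with G3BP1 in untreated cells and 3.10 and 3.03 after AS, and with G3BP2 3.13 and 3.02 in untreated cells and 3.08 and 3.13 after AS. Its changes were -0.05 ± 0.05 (SE) for G3BP1 and 0.03 ± 0.05 for G3BP2, neither of which passed the test, although the G3BP1 duplicates narrowly did not overlap.

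TXNRD1 had the highest values of the set. With G3BP1 it had 3.26 and 3.05 in untreated cells and 3.36 and 3.34 after AS, which did not overlap, and a change of 0.20 ± 0.08 with an unadjusted p of 0.0520 and an adjusted p of 0.995 in limma. The change depended on which untreated duplicate was kept, being 0.30 without the first of them and 0.09 without the second, with adjusted p of 0.598 and 1.00 in limma. With G3BP2 it had 3.24 and 3.06 in untreated cells and 3.32 and 3.18 after AS, which overlapped, and a change of 0.10 ± 0.08.

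SQSTM1 with G3BP2 showed the change of largest size among the members, from 1.40 and 1.66 in untreated cells to 1.20 and 1.06 after AS. The change was -0.40 ± 0.17 with an unadjusted p of 0.0666 and an adjusted p of 0.994 in limma, and the whole numbers behind these values were small, 48 and 36 in the untreated libraries against 29 and 6 after AS. With G3BP1 its values were 1.55 and 1.58 in untreated cells and 1.34 and 1.62 after AS, and the test of the difference between the proteins gave -0.32 ± 0.25.

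Across the set, duplicates of AS and untreated cells did not overlap for 3 members with G3BP1 and 2 with G3BP2. For G3BP1 these were TXNRD1, higher after AS, and NFE2L2 and HMOX1, lower after AS, against 13.3% of genes higher and 14.5% lower without overlap. For G3BP2 they were NQO1, at 2.34 in both AS libraries against 2.34 and 2.03 in untreated ones, and SQSTM1, lower, against 14.7% and 15.6% of genes. The deposited values have 2 decimals, and the gaps of NQO1, NFE2L2 and HMOX1 were narrower than that rounding. Their closest untreated and AS values were 2.341 and 2.342, 3.106 and 3.103, and 2.189 and 2.182. Out of 10 members, these counts are near the background shares.

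HMOX1 was the member whose values did not overlap between the proteins. Its 4 values with G3BP1 ran from 2.10 to 2.24 and its 4 with G3BP2 from 2.02 to 2.07, without overlap, which occurred in 0.748% of 19259 genes in this direction and in 0.981% in the other. The mean difference of G3BP2 from G3BP1 was -0.15 ± 0.06, with an unadjusted p of 0.0491 and an adjusted p of 0.998 in limma, so it did not pass. In the same fit 0.597% of genes were lower and 0.608% higher at an unadjusted p under 0.05, with HMOX1 the single member among them. The other members differed between the proteins by between -0.19 and 0.10.

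**Figure D4:**
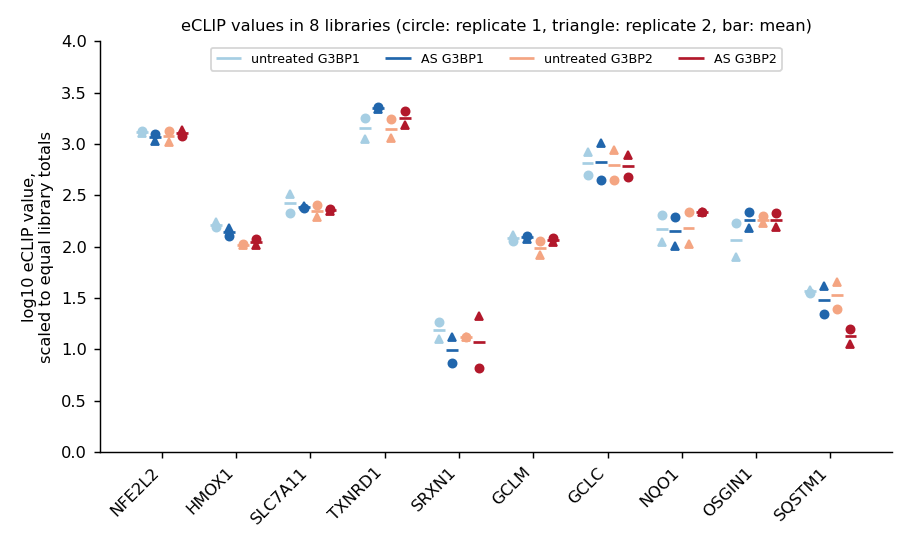
log10 eCLIP value, scaled to equal library totals, of each NRF2 target gene in 8 libraries, with duplicates as circles and triangles and their mean as a bar, by protein and treatment. AS and untreated duplicates stand apart for TXNRD1 and, narrowly, for NFE2L2 and HMOX1 with G3BP1. With G3BP2 they stand apart for SQSTM1 and, narrowly, for NQO1, and otherwise they overlap.

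The order of the members by eCLIP value followed the summed genomic span of their listed transcripts. Genome shared by several transcripts counts once for each, so the sum grows with transcript number as well as gene length. Pearson's r was taken over the 16453 genes above 0 in all libraries that had a listed span. Between the scaled value and log10 of the summed span of the listed transcripts, introns included, it was 0.920 to 0.951 in the 8 libraries. Between the value and log10 of TPM + 1 in siCtrl it was -0.0688 to 0.0263. Points share library and annotation, and the correlations are descriptions. For the 10 members, Spearman's rho with the span was 0.770 to 0.879. TXNRD1, with 871 kb of summed span, had a median value of 3.25, and SRXN1, a single transcript of 6.59 kb, had 1.12 despite 31.2 TPM in siCtrl.

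Per kilobase of summed span most members lay in the bulk of genes. Their median percentile over the 8 libraries ran from 30.6 for HMOX1 to 64.7 for NFE2L2. SQSTM1 was the exception, at 0.252 per kb against a median of 1.90 over all genes, and between the 0.432th and 2.29th percentile in every library. It was thus low in both the eCLIP and the rRNA-depleted tables while being 44.4 TPM in siCtrl, and the cause was not tested.

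**Figure D5:**
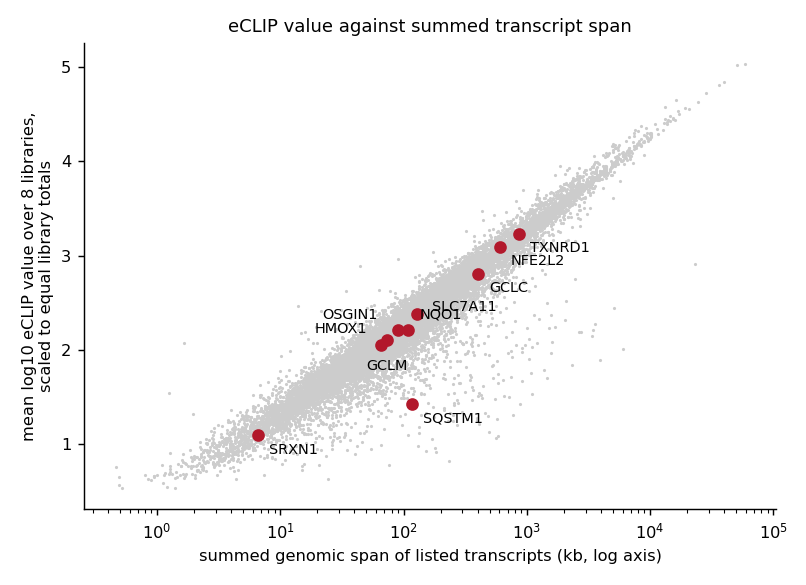
Mean scaled log10 eCLIP value over 8 libraries against the summed genomic span of listed transcripts in kb on a log axis, for 16453 genes (grey) and the 10 NRF2 target genes (red). The members follow the band of all genes except SQSTM1, which lies below it.

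The regulators of NRF2 and the wider antioxidant pathway were described from a list of 66 further genes, 64 of which were in the tables. After AS in rRNA-depleted RNA, 4 of 55 tested were called higher and 1 lower, near the 7.66% and 1.41% of all genes. MAFF, a small MAF partner of NRF2, had a signal of 3.12 in untreated and 12.7 in AS, a ratio of 4.07. GDF15, a stress-induced cytokine, had 0.483 and 2.33, a ratio of 4.83, from low signals for a gene at 54.8 TPM in siCtrl. In Total it stood at 25.8 TPM and was called lower than siCtrl, the opposite direction. SLC3A2, the heavy chain that carries SLC7A11 to the membrane, had 216 and 436, a ratio of 2.02.

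NFE2, a relative of NRF2, was listed at 0 in untreated cells and 1.43 in AS, but at 0.0218 TPM in siCtrl and 0 TPM in Total. GGT1, which cleaves extracellular glutathione, had signals of 5.41 and 2.54, a ratio of 0.470. The other partners were not called. KEAP1 had a ratio of 1.08, BACH1 1.22, MAFG 0.978 and MAFK 1.53, from signals of 46.3, 26.8, 11.4 and 1.61 in untreated cells. Hence of the 3 small MAF genes MAFF was the one called.

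In SG cores the lists by function differed in their counts. Of 57 genes tested, 23 were enriched and 21 depleted, where 62.9% and 9.45% of all genes were, so that fewer of the list were enriched and more depleted. Among regulators of NRF2, 10 of 11 tested were enriched, RBX1 being the exception, with a median ratio of 7.98 against 2.86 over all tested genes. BACH1 stood at 0.350 TPM in Total and 25.6 TPM in SG, MAFG at 6.09 and 115 TPM, MAFK at 2.23 and 18.4 TPM, MAFF at 4.15 and 16.2 TPM, and KEAP1 at 45.2 and 96.6 TPM.

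Of 15 glutathione and thioredoxin genes, 9 were depleted and 3 enriched, with a median ratio of 0.479. Haem and iron genes were depleted in 4 and enriched in 3 of 7, and the NADPH genes in 2 and 1 of 6. Detoxification and export genes were depleted in 4 and enriched in 4 of 11. The differences between these lists were not tested.

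In the knockdowns, 1 gene of the list was called higher and 3 lower with each siRNA, of 55 tested in siG3BP1 and 54 in siG3BP2. Over all genes 2.53% were higher and 3.69% lower in siG3BP1, and 2.43% and 5.62% in siG3BP2, so these counts were near the background. The 3 lower genes, chosen here after their values were seen, were ABCC4, HMOX2 and SLC6A6 in both comparisons, which share siCtrl. HMOX2, the constitutive haem oxygenase, was at 16.2 TPM in siCtrl and 0.754 and 0.844 TPM in the knockdowns. In Total against siCtrl, 9 of 55 were called lower, these 3 among them, and none higher, against 27.2% and 2.37% of all genes. HMOX2 was at 0.613 TPM in Total and 10.4 TPM in SG.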

How the data were processed

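SH-SY5Y libraries of 19 samples were grouped by their labels, and the 4 SMInput samples are left out. The authors processed eCLIP reads with fastp, STAR and CLIPper, normalized peaks to SMInput and deposited log10 values per gene, and which steps these include is not stated. Reads of the 5 other libraries, which the labels call polyA RNA-seq, were aligned by the authors with HISAT2 2.1.0, and TPM from StringTie were deposited. For rRNA-depleted libraries they deposited a value per transcript that is headed TPM but is treated as a signal, since reads per kilobase over a library constant gave whole reads for over 99% of transcripts above 0 within a tolerance of 0.01. The constants were 13291958 reads in untreated and 11281587 reads in AS. TPM gives no depth, and the TPM of the 19942 rows sum to between 623955 and 735927.

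Gene IDs were matched to GENCODE release 44 (19910 rows found), which is not the release of the authors, and 91.1% of transcripts were found by ID. For 88.5% the version matched too, and reads were recovered for these alone. A ratio over 2 or under 0.5 was a call if the larger value exceeded 1, on TPM + 1 for SG against Total. For eCLIP each library was scaled to the geometric mean of the 8 totals, and limma 3.58.1 in R 4.3.3 was run with an intensity trend over genes above 0 in at least 2 libraries, with Benjamini-Hochberg adjustment, two-sided. Nothing says that eCLIP duplicates came from separate cultures, so p-values measure the spread between these libraries. The limma fit for G3BP2 was also run on simulated data, and the ratio rule on values with known folds. The other eCLIP fits were not simulated. Python 3.11.15, pandas 2.3.3, numpy 2.4.6, scipy 1.17.1 and matplotlib 3.10.9 were used.

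The members and lists were chosen with earlier results of these data known. All members are named in each comparison, with KEAP1, BACH1, MAFF, MAFG, MAFK and the listed pathway genes called after AS in rRNA-depleted RNA, and the 5 genes nearest to HMOX1. Alternatives were the scaling, pseudocount, thresholds, minimum, transcripts summed, replicate block and leaving out eCLIP libraries.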

Additional observations from a re-analysis of the deposited data

Results flagged for a closer look

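The ratio to the control lay on opposite sides of 1 in the comparisons that involve AS for 9 of the 10 members, above 1 in rRNA-depleted AS over untreated RNA and below 1 in Total over siCtrl. The same held for 62.8% of the 11410 genes tested in both. OSGIN1 had 2.03 and 0.488, SRXN1 1.43 and 0.472, and SLC7A11, which was under the minimum, 1.34 and 0.469. NFE2L2 had 1.87 and 0.941, GCLC 1.56 and 0.654, and GCLM 1.17 and 0.650. TXNRD1 had 1.22 and 0.601, SQSTM1 1.42 and 0.609, and NQO1 1.04 and 0.786. HMOX1 was the member above 1 in both. Each condition had 1 library, and the difference between the comparisons was not tested. Over all genes the median ratios were 1.21 and 0.750, and the libraries also differ in RNA selection, transfection and lysate preparation.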

How the results depend on the processing

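Of the counts of members called, these changed by more than 1.5 times. With the median ratio set to 1, 1 member gene (HMOX1) and 6 transcripts were higher after AS in rRNA-depleted RNA, 3 members were enriched and 4 depleted in SG, and 0 were lower in Total. With a fold of value + 1, 1 member gene and 0 transcripts were higher after AS, and 1 member (SRXN1) was lower in Total. With thresholds of 4 and 0.25, 0 genes and 1 transcript were higher after AS and 0 members lower in Total. With no minimum, 20 transcripts were higher and 5 lower. The counts in the knockdowns and all eCLIP counts of members past the threshold stayed at 0, with limma adjusted p of at least 0.402 in every alternative. Leaving out single eCLIP libraries gave 0 to 0 members.

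Same-numbered eCLIP duplicates deviated together, with Pearson's r of 0.110 to 0.545 across 16476 genes for the 6 pairs of groups, but replicate 1 was the deeper library in every group and the labels state no shared culture. The replicate block left 0 members past the threshold in each of the 4 fits. With it TXNRD1 had an unadjusted p of 0.0267 for G3BP1 and 0.0501 for G3BP2, with adjusted p of 0.975 and 0.943 in limma. At an unadjusted p under 0.05, 337 genes were higher and 309 lower of 18888 in that G3BP1 fit. After scaling, AS was above untreated for TXNRD1 in all 4 same-numbered pairs, and the share of all genes with this pattern was not counted. Before scaling, replicate 2 of G3BP2 had 2.97 in untreated cells and 2.95 after AS. Leaving out replicate 1 or 2 from both treatments leaves 1 library per arm and was not tested.

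Depth limits HMOX1, OSGIN1, SLC7A11 and SQSTM1, whose main transcripts had at most 41 reads per library.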

Other observations

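Among 10757 genes above 10 TPM in at least 1 of the 5 TPM libraries, the genes with a pattern most like that of HMOX1 were ASCC2, IER5L, HSDL2, CDC25C and ZNF691, by Euclidean distance of centred log2(TPM + 1), from 0.189 to 0.316. IER5L, an immediate early response gene, also had a signal of 1.83 in untreated and 4.32 in AS rRNA-depleted RNA, a ratio of 2.36. ASCC2 and HSDL2 had ratios of 1.11 and 0.902 there, under the median of 1.21.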
